A study of Mus musculus with 20 samples.

Results

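The tubulin genes form a family of α and β isotypes, and 10 of its members were followed through the left ventricle of mice on 4 diets. The members were the rows of the deposited count table whose symbol, mapped from the Ensembl identifier, was Tuba1a, Tuba1b, Tuba1c, Tuba4a, Tuba8, Tubb2a, Tubb2b, Tubb4b, Tubb5 or Tubb6. All 10 were present among 15956 genes, of which 15917 had a symbol, and all 10 passed the filter on low counts that left 13991 genes for testing. They were selected on their symbol and on presence in the table, whose lowest total for any gene over the 20 libraries was 60 counts, so their detection is not a result. The list was also proposed with earlier results of these data in view, and the differences between diets below are a description of these libraries.

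The hearts came from mice fed a normal protein diet (NP, n = 5), a low protein diet (LP, n = 5), a high-fat diet with the protein content of NP (HF, n = 5), or a high-fat diet with the low protein content (HF + LP, n = 5). Protein was supplied as casein in every diet, and low protein meant less casein, with carbohydrate adjusted in its place. According to the study's methods all animals were males that entered the diets in middle age. The age in the labels is 18 months throughout, older than the age at collection in the methods, and no strain is named there. Total RNA was made from frozen left ventricle and sequenced from the 3′ end of polyadenylated transcripts. Mice are named here by diet and by the animal number in their label. The label of LP mouse 5 also carries a sample number, whose meaning is not given. The animal numbers mark separate animals, so the error given is the spread between mice.

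One α-tubulin and one β-tubulin join into a heterodimer, and heterodimers stack into the hollow filaments called microtubules. Microtubules carry cargo through the cardiomyocyte, position its organelles and, as a network between the myofibrils, resist its shortening and lengthening. The isotypes are products of separate genes whose proteins are nearly identical except at their ends. Cells adjust tubulin mRNA to the amount of free heterodimer by autoregulation, in which the first residues of the nascent chain are recognized and the mRNA is degraded. The far end is a flexible acidic tail that protrudes from the microtubule and receives most tubulin modifications. Among these, removal of the terminal tyrosine of α-tubulin by vasohibins (detyrosination) and its restoration by tubulin tyrosine ligase are well studied in the heart, where detyrosinated microtubules stiffen the cardiomyocyte.

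The 3′ ends of the coding sequences show how α isotypes differ. The last 63 coding bases of Tuba4a and Tuba8, the muscle α genes whose values were lower in HF than in NP, follow in the sense direction, in lower case with the last sense codon in capitals and the stop codon after it. They were read from the GENCODE M21 transcripts of the mouse genome build GRCm38.
Tuba4a (chr1:75215622-75215684, minus strand): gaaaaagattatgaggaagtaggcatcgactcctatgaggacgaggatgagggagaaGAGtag
Tuba8 (chr6:121226017-121226079, plus strand): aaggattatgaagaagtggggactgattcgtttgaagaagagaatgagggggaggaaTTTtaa
Tuba4a ends in GAG and Tuba8 in TTT, neither of which is a tyrosine codon. Tuba4a is known as the α isotype made without its terminal tyrosine.

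The other end carries the stretch that autoregulation reads. The first 30 coding bases of 1 α and 2 β genes follow, with the first 12 bases, which encode the residues recognized in autoregulation, in capitals.
Tuba4a (chr1:75217408-75219195, minus strand, split by an intron): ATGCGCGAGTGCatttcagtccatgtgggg
Tubb2a (chr13:34077900-34077929, minus strand): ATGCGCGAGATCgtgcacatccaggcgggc
Tubb5 (chr17:35838024-35838053, minus strand): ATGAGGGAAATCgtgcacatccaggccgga

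The α genes Tuba1b (chr15:98931425-98934565), Tuba1a (chr15:98949837-98953703) and Tuba1c (chr15:99029891-99038110) are neighbors on chromosome 15 of GRCm38. The β genes Tubb2a (chr13:34074274-34078007) and Tubb2b (chr13:34126748-34130466) are neighbors on chromosome 13. Tuba4a (chr1:75214228-75219865), Tuba8 (chr6:121210696-121226854), Tubb4b (chr2:25222160-25224702), Tubb5 (chr17:35833921-35838306) and Tubb6 (chr18:67390717-67402749) stand apart from one another, and all 10 are annotated as protein coding. Their likeness matters for the counts, because the reads were 75 bases long. In the last 400 bases of the transcripts, where 3′ reads fall, Tuba1a shared 122 of 326 windows of 75 bases with Tuba1b and 80 with Tuba1c, and Tuba1b shared 120 with Tuba1c. Reads from these windows cannot be assigned to 1 gene, and how they were treated is not given in the sources used here, so both the level of the Tuba1 group and the split within it are uncertain. Tubb2a and Tubb2b were identical at 96.5% of their coding bases but shared 0 such windows near the 3′ end.

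The 20 libraries held between 12559607 and 23331907 counts. Cardiomyocyte markers such as Myh6 and Tnnt2 were abundant in all of them, with a summed level of 44348 to 59977 CPM (counts relative to the scaled library total) over 9 genes. LP mice 13 and 20 stood apart from the rest. LP mouse 13 had the lowest median correlation with its group (0.908, against 0.944 to 0.979 in the other mice) and the highest sum of atrial myocyte markers, 18063 CPM against 53.0 to 12460.2 CPM in the other 19 mice. LP mouse 20 had 173 CPM of proliferating cell markers against at most 34.95 CPM in the others, and 104 CPM of lymphocyte markers. Values without these mice, an alternative chosen after the data were seen, are given beside the results that they moved. In bulk tissue a change in the number of cells of a type and a change in the RNA per cell cannot be told apart.

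Tuba4a dominated the family. A 3′ count does not grow with the length of a transcript, so levels of different genes are compared as normalized counts, meaning counts scaled by TMM factors to a common library size. The mean over the 20 mice was 13522 for Tuba4a, which placed it 87th among the 13991 genes tested, and 3327 for Tuba1b. Tubb5 (2207) was the most abundant β gene. Below it came Tuba8 (1780.3), a muscle and brain isotype, Tubb4b (1456), Tuba1a (1190.1), Tuba1c (815), Tubb2a (430.2), Tubb6 (259) and Tubb2b (85.5). Tuba4a exceeded Tuba1b, Tuba1b exceeded Tubb5 and Tuba1c exceeded Tubb2a in all 20 mice. Tubb5 exceeded Tuba8 in 14 of 20 mice and Tubb4b exceeded Tuba1a in 16 of 20, so these neighbors did not separate beyond the spread between mice, and the remaining steps held in 18 or 19 of 20. The lowest raw count of any member in any library was 34, for Tubb2b, and counting error matters most for that gene.

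**Figure D1:**
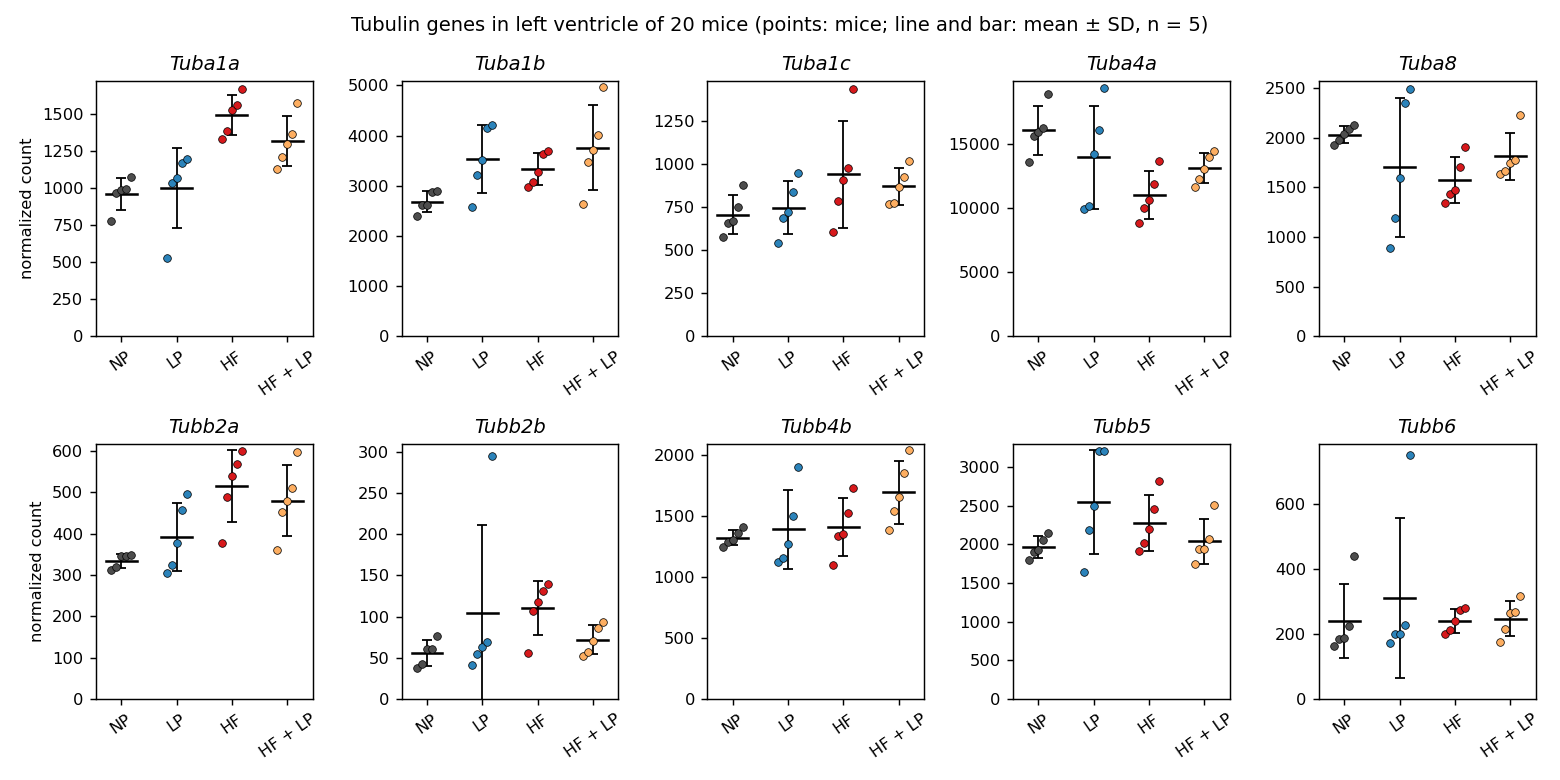
Normalized count (linear axis from 0) of each of the 10 tubulin genes in each of the 20 mice, by diet, with the mean and SD of 5 mice per diet. In HF the 5 mice lay above all 5 NP mice for Tuba1a, Tuba1b and Tubb2a and below all 5 for Tuba8, and single LP mice stood apart for Tubb2b and Tubb6.

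The comparison of HF with NP asks what a high-fat diet does at normal protein content. In edgeR no tubulin gene met the study's thresholds, which were an adjusted p below 0.01 and a mean normalized count above 50. The quasi-likelihood test of edgeR, with p adjusted over all genes by Benjamini-Hochberg, called 0 of 10, against 0.264% of the 13991 genes. DESeq2, the tool that the study's methods name, called 2 of 10 on the same counts, Tuba1a and Tubb2a, against 1.0% of the genes that it tested. At an adjusted p below 0.05, with no minimum on the mean count, there was 1 of 10, Tubb2a, against 1.37% of all genes. At an unadjusted p below 0.05 there were 6 of 10 members, against 13.1% of all genes, but 3 of 10 without NP mouse 3 or without HF mouse 4, and 4 of 10 without NP mouse 5, NP mouse 8 or HF mouse 5. Of the 6, Tuba1a, Tuba1b, Tuba1c, Tubb2a and Tubb2b had higher values in HF (5 of 10, against 5.17% of all genes) and Tuba4a lower (1 of 10, against 7.91%). In 4 of 10 members the 5 HF mice did not overlap the 5 NP mice, against 5.67% of all genes, with 3 of 10 higher (against 2.07%) and 1 of 10 lower (against 3.6%). The median log2 fold change was 0.26 over the members and -0.00 over all genes.

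Tuba1a, the isotype best known from developing neurons, had normalized counts of 778, 965, 987, 993 and 1075 in the NP mice and of 1328, 1384, 1522, 1559 and 1662 in the HF mice. The lowest HF value exceeded the highest NP value. The HF + LP mice had 1126, 1211, 1298, 1359 and 1570.2, again all above the NP mice, and the LP mice had 528, 1030.4, 1068, 1168 and 1191. The fold between HF and NP was 1.55, with a log2 fold change of 0.64 (SE 0.16, adjusted p = 0.0566 in edgeR). The low LP value was that of mouse 13, and with that library left out of the shared fit the HF against NP difference was 0.63 (SE 0.10, adjusted p = 0.00213), past the threshold. DESeq2 gave 0.66 with an adjusted p of 0.00881.

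Tubb2a, a β isotype with a broad distribution that is high in brain, followed the same order. The NP mice held 311, 319.8, 345, 345 and 349 normalized counts and the HF mice 378, 489, 539.7, 569 and 601. The NP values were tight, with an SD of 17.2 around 334, and no HF mouse reached down to them. The HF + LP mice had 361, 452, 478, 509.6 and 597, and the LP mice spanned 306 to 495. The fold between HF and NP was 1.54, and the log2 fold change of 0.63 (SE 0.15) had an adjusted p of 0.039, which placed Tubb2a 164th of all genes by p. It passed 0.05 but not 0.01 in edgeR. The adjusted p was 0.00418 in DESeq2.

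Tuba4a, the major α gene of this tissue, had its highest mean in NP, where the mice held 13552, 15629, 15901, 16248 and 18923 normalized counts. The HF mice had 8796, 10023, 10660.2, 11880.2 and 13635, of which only the highest reached into the NP range. The HF + LP mice had 11662, 12253, 13076, 13972 and 14466, of which 3 lay within the HF range and 2 within the NP range. The LP mice were the most scattered, with 9895, 10193, 14183, 16115 and 19369. The lowest LP values were those of mice 20 and 13. HF was lower than NP by a log2 fold change of -0.55 (SE 0.16, adjusted p = 0.100 in edgeR). Without LP mice 13 and 20 the fold change was -0.54 and the adjusted p 0.0205.

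Tuba8 was the most even gene of the family within NP, with 1924, 1979, 2040.2, 2087 and 2132 normalized counts. All HF mice lay lower, at 1344, 1435, 1469.8, 1701 and 1911. The LP mice ranged from 891 in mouse 13 to 2492 in mouse 2, a wider range than that of the other 3 diets together. The log2 fold change between HF and NP was -0.37 (SE 0.20, adjusted p = 0.470), in a fit that shares its estimate of spread with LP. Without LP mice 13 and 20 it was -0.37 (SE 0.13, adjusted p = 0.127).

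Tuba1b, the main α isotype of dividing and non-muscle cells, had 2396, 2614, 2618, 2881 and 2895 normalized counts in NP and 2977, 3085, 3284, 3637 and 3685 in HF, with no overlap. The difference was modest, with a log2 fold change of 0.31 (SE 0.15, adjusted p = 0.363). Tuba1c averaged 705 ± 113 (SD, n = 5) in NP and 940.1 ± 311 in HF, where HF mouse 2 alone held 1435. Its log2 fold change of 0.41 (SE 0.19, adjusted p = 0.346) came with overlapping groups and was 0.21 (SE 0.16) without HF mouse 2. For all members of the Tuba1 group the uncertain assignment of shared reads applies.

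Tubb2b, a β isotype known for its role in the developing cortex, was the scarcest member and had the largest fold change. Its NP values were 37.4, 43.0, 60.2, 60.9 and 76.1 normalized counts, and its HF values were 55.9, 107, 117, 131 and 139.7. HF mouse 3 lay inside the NP range and the other 4 above it. The log2 fold change was 0.99 (SE 0.43, adjusted p = 0.318), and without LP mice 13 and 20 it was 0.98 with an adjusted p of 0.0351.

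The remaining β genes differed little between HF and NP. Tubb5, the commonest β isotype of non-neuronal cells, had 1963 ± 138 in NP and 2278 ± 362 in HF (log2 fold change 0.21, SE 0.16, and 0.13 without HF mouse 2). Tubb4b, found in cilia and in many tissues, had 1324 ± 63.6 and 1411 ± 237 (0.09, SE 0.14), and its difference was 0.00579 without HF mouse 2 and 0.17 without HF mouse 3. Tubb6, a β isotype that is raised in regenerating skeletal muscle, had 239 ± 115 and 240.1 ± 36.1 (0.01, SE 0.35, and 0.35 without NP mouse 4), and its standard error was the second largest of the family after that of Tubb2b.

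Other features of the libraries moved with the HF against NP difference. Summed endothelial markers (7 genes, all detected) were 501 to 571 CPM in NP and 586 to 717 CPM in HF. On these unscaled totals the groups did not overlap, but they did with totals scaled as for the tubulin counts. Of the 7 genes 1 was higher in HF at an unadjusted p below 0.05. Summed immediate early genes (6 detected, 2 of them higher in HF at that p) were 53.2 to 72.7 CPM in NP and 74.8 to 99.0 CPM in HF. Again the groups were apart only on the unscaled totals. Summed macrophage markers (9 genes, all detected) were 214 to 319 CPM in NP and 297 to 423 CPM in HF, and 5 of the 9 had higher values in HF at an unadjusted p below 0.05. Lower values at that p were found for 3 of 7 pericyte and smooth muscle markers and for 3 of 9 cardiomyocyte markers. Of the fibroblast and erythroid markers, 1 of 8 and 1 of 5 were higher. Over all genes 5.17% were higher and 7.91% lower in HF at that p. The share of counts from mitochondrial DNA was 41.3% to 47.1% in NP and 38.1% to 39.8% in HF. The part of these differences in the tubulin values was not tested. The library names also carry a number from 1 to 3 whose meaning is not given. Within numbers 1, 2 and 3 the mean log2 difference between HF and NP was 0.83, 0.38 and 0.67 for Tuba1a, 0.24, 0.57 and 0.71 for Tubb2a, and -0.55, -0.35 and -0.55 for Tuba4a, each from 1 to 3 mice a group.

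Protein restriction on the high-fat diet was examined by comparing HF + LP with HF. No member was called by edgeR or by DESeq2 (0 of 10, against 0.0% of all genes in edgeR), and 0 of 10 had an unadjusted p below 0.05, against 4.84% of all genes, or 1 of 10 without HF mouse 2, HF + LP mouse 1, LP mouse 2 or LP mouse 20. Tuba1a averaged 1491 ± 135 in HF and 1313 ± 169 in HF + LP, and its log2 fold change was -0.18 (SE 0.16). Tubb2a averaged 515 ± 87.3 and 479.6 ± 85.7 (-0.11, SE 0.15). The Tubb2a difference was -0.0191 without HF + LP mouse 1, -0.0442 without HF mouse 4, -0.0676 without HF mouse 5, and -0.20 without HF mouse 1 or HF + LP mouse 4. Tuba4a averaged 10999 ± 1847 and 13086 ± 1163 (0.25, SE 0.16). The groups overlapped in each of these genes. The largest difference was that of Tubb2b, which averaged 110.2 ± 32.9 in HF and 71.8 ± 17.7 in HF + LP (-0.61, SE 0.42, adjusted p = 0.999). Tubb4b had its highest mean in HF + LP, 1697 ± 259 (0.27, SE 0.14, adjusted p = 0.999).

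When the 2 high-fat diets were averaged and set against the average of NP and LP (the main effect of fat), 0 of 10 members were called by edgeR, against 1.0% of all genes, and 2 by DESeq2, against 2.46% of those it tested. At an unadjusted p below 0.05 there were 4 of 10 members, against 20.8% of all genes. Tuba1a (log2 fold change 0.52, SE 0.11, adjusted p = 0.0136) and Tubb2a (0.46, SE 0.11, adjusted p = 0.0167) came closest to the threshold. Tuba1c (0.32, SE 0.13, adjusted p = 0.171) and Tuba4a (-0.32, SE 0.11, adjusted p = 0.114) were the other 2. Single libraries decided whether the threshold was met. Tuba1a passed it without LP mouse 13 (adjusted p = 0.00243) or without LP mouse 5 (0.00918). Tubb2a passed it without HF mouse 1 (0.00782), without LP mouse 2 (0.00912) or without HF + LP mouse 1 (0.00971). Without both LP mice 13 and 20, Tuba1a (0.41, adjusted p = 0.00538) and Tuba4a (-0.45, adjusted p = 0.00917) were called and Tubb2a (0.39, adjusted p = 0.0460) was not. Cell markers moved with fat too. At an unadjusted p below 0.05, 5 of 5 adipocyte, 2 of 7 pericyte and smooth muscle and 2 of 9 cardiomyocyte markers were lower, against 12.6% of all genes. Higher were 3 of 9 macrophage and 2 of 7 endothelial markers, against 8.28%. Their part in the tubulin values was not tested.

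**Figure D2:**
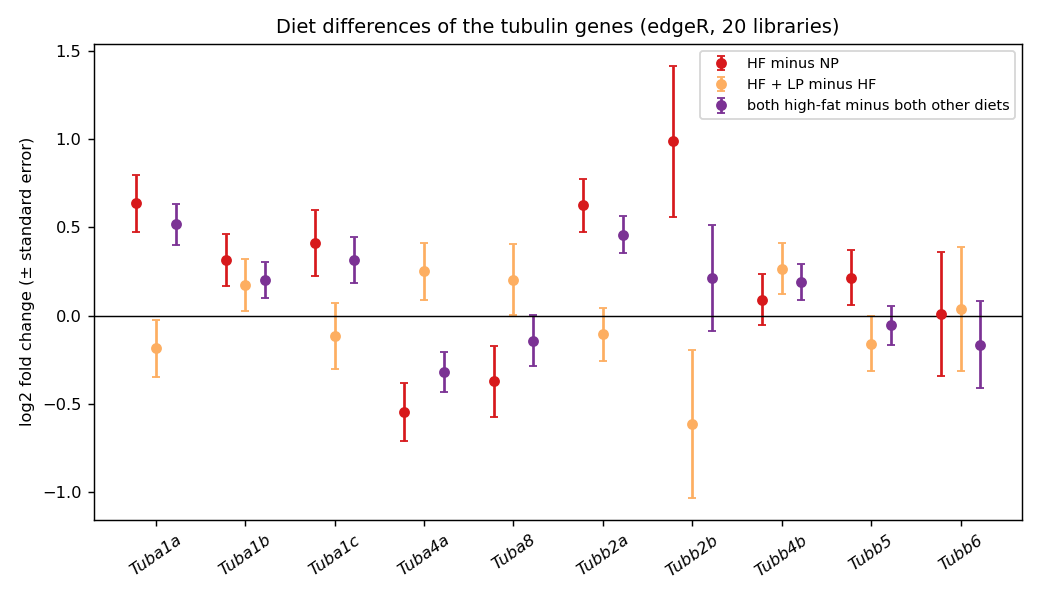
Log2 fold change (points) with its standard error (bars) of each tubulin gene for HF minus NP, HF + LP minus HF, and both high-fat diets minus both other diets, from 1 edgeR fit to 20 libraries. Tuba1a and Tubb2a lie near 0.6 for HF minus NP, Tuba4a at -0.55, and the values for HF + LP minus HF lie closer to 0 than those for HF minus NP in most members.

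At normal fat content, protein restriction was examined by comparing LP with NP, a comparison that shares its NP mice with HF against NP. No member was called by edgeR or DESeq2 (0 of 10, against 0.0% of all genes in edgeR), and 3 of 10 had an unadjusted p below 0.05, against 7.23% of all genes. That count was 1 without LP mouse 20 or NP mouse 6 and 5 without LP mouse 2. Tuba1b had 2582, 3218, 3508, 4156 and 4208 normalized counts in LP, of which all but the lowest lay above the NP mice (log2 fold change 0.40, SE 0.15, adjusted p = 0.592). Tubb5 had 1645, 2186, 2492, 3205 and 3207, with the highest values in mice 13 and 20 (0.38, SE 0.16, adjusted p = 0.635). Without those mice the Tubb5 difference was 0.10 and that of Tuba1b 0.21. Tubb2b had 40.9, 54.2, 63.6 and 69.2 in 4 LP mice and 295 in mouse 20. Its log2 fold change of 0.93 (SE 0.43, adjusted p = 0.671) dropped to 0.03 without mouse 20.

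Comparing HF + LP with LP, 0 of 10 members were called by edgeR, against 0.1% of all genes, and 0 by DESeq2. Tuba1a (log2 fold change 0.40, SE 0.16, adjusted p = 0.233) was the 1 member with an unadjusted p below 0.05, against 15.9% of all genes. Leaving out 1 library moved this count to between 0 (without HF + LP mouse 4) and 4 (without LP mouse 2), with 3 without LP mouse 5 or HF + LP mouse 1 and 2 without HF mouse 1, HF mouse 2, HF + LP mouse 2 or HF + LP mouse 3. LP mouse 13, with 528 normalized counts of Tuba1a, lowered the LP mean, and the difference was 0.23 (SE 0.11, adjusted p = 0.396) without it and 0.19 (SE 0.12, adjusted p = 0.791) without LP mice 13 and 20. For the main effect of protein 0 of 10 were called by both tools, against 0.0% of all genes in edgeR, and Tuba1b (0.29, SE 0.10, adjusted p = 0.776, and 0.19 without LP mice 13 and 20) was the 1 member under an unadjusted 0.05, against 5.47%. The test of the interaction asks whether the protein difference itself differed between the fat contents. It called 0 of 10 members with both tools, against 0.0% of all genes in edgeR, and 2 of 10 had an unadjusted p below 0.05, against 7.17%, a count that was 4 without LP mouse 2 or LP mouse 5 and 1 without LP mouse 20. These were Tubb2b (-1.54, SE 0.60, adjusted p = 0.683) and Tubb5 (-0.54, SE 0.22, adjusted p = 0.683). Without LP mouse 20 the interaction of Tubb2b was -0.65. Without LP mice 13 and 20 it was -0.79 and that of Tubb5 -0.27. The test for any difference among the 4 diets called 0 of 10 members in edgeR, against 0.479% of all genes, with 4 of 10 under an unadjusted 0.05 against 15.9%. DESeq2 called 2, Tuba1a and Tubb2a, against 2.01% of the genes that it tested. Without LP mouse 13, Tuba1a was called by edgeR (adjusted p = 0.00622).

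The composition of the α pool shows the same values from within each library, where the scaling between libraries cancels. Of the raw counts of the 5 α genes, Tuba4a made up 69.4%, 70.4%, 70.6%, 71.2% and 75.5% in the NP mice and 57.7%, 58.1%, 59.5%, 59.7% and 63.7% in the HF mice. The groups did not overlap. In HF + LP it was 58.9% to 66.2%, also below every NP mouse, and in LP 58.0% to 71.2%. The mean share was 71.4% ± 2.38 in NP, 59.8% ± 2.38 in HF, 62.9% ± 2.84 in HF + LP and 65.8% ± 5.47 in LP (SD, n = 5). Tuba1a made up 4.31% ± 0.639 in NP and 8.26% ± 1.42 in HF, and 6.32% ± 0.763 in HF + LP. Tuba1b made up 10.4% to 13.0% in NP and 14.4% to 20.3% in HF, with 14.2% to 22.3% in HF + LP and 11.2% to 25.5% in LP. Tuba8 kept a like share, 9.11% in NP and 8.57% in HF. No test is given for shares, since they depend on which members are counted. They depend too on whether reads shared within the Tuba1 group were counted, so the size of the Tuba4a share is uncertain.

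The 5 α genes together averaged 22428 ± 1973 normalized counts in NP and 18336 ± 2387 in HF, against 20838 ± 1904 in HF + LP and 20933 ± 4479 in LP. The 5 β genes averaged 3916 ± 184 in NP and 4554 ± 622 in HF, against 4535 ± 518 in HF + LP and 4746 ± 640.1 in LP. Counts of α genes exceeded counts of β genes in every diet. Among the β counts Tubb5 held 47.6% to 51.9% in NP, 46.8% to 52.2% in HF, 39.6% to 49.7% in HF + LP and 42.6% to 61.6% in LP. Tubb4b held 29.6% to 37.4% in NP, 28.6% to 32.2% in HF, 32.9% to 41.7% in HF + LP and 20.8% to 39.0% in LP. The share of Tubb2a was 8.55% ± 0.664 in NP and 11.5% ± 2.35 in HF, with 10.5% ± 1.03 in HF + LP and 8.46% ± 2.47 in LP.

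**Figure D3:**
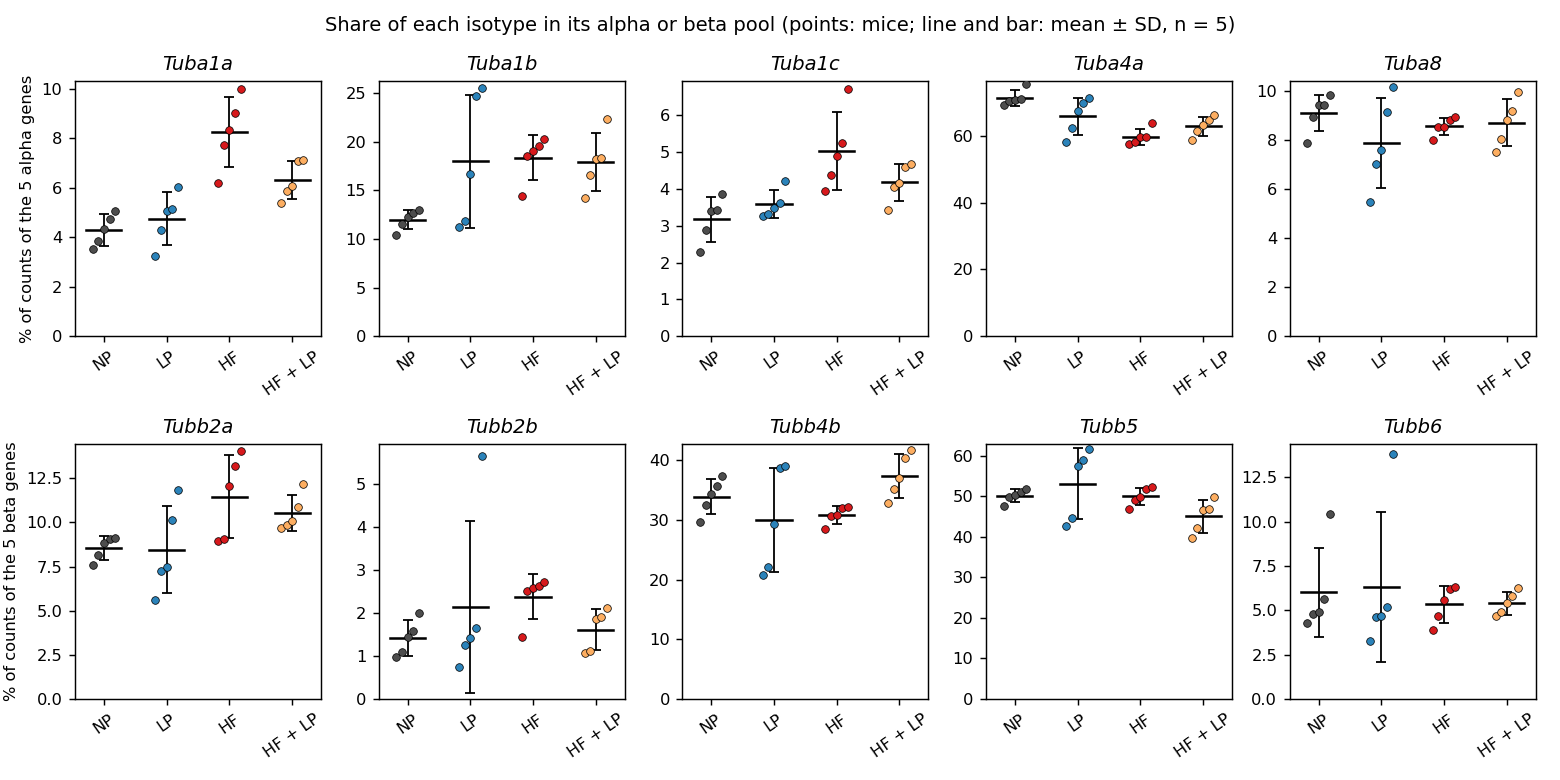
Share in percent of each isotype among the raw counts of the 5 α genes (upper row) or the 5 β genes (lower row) in each of 20 mice, by diet, with the mean and SD of 5 mice (axes start at 0). Tuba4a lies between 69.4% and 75.5% in NP and between 57.7% and 63.7% in HF, and Tuba1a and Tuba1b are higher in HF than in NP.

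Members were also compared between mice of the same diet. Each gene's log2 CPM, here from TMM-scaled library totals, was centered on its diet mean. The 45 pairs were correlated over 20 mice with a two-sided permutation test of 100000 resamples within diets. With a Benjamini-Hochberg adjusted p under 0.05 there were 6 pairs by Pearson's r and 4 by Spearman's rho, all of the 6 positive. The share of other gene pairs that correlate this strongly was not computed, so the count is not a trait of the family. The genes outside the family most like each member, given below, reached r of 0.84 to 0.95. Tuba4a and Tuba8 had r = 0.86 (p = 0.00048, adjusted p = 0.0072) and rho = 0.84 (p = 0.0004, adjusted p = 0.006). Tuba4a and Tubb4b had r = 0.83 (p = 8e-05, adjusted p = 0.0036) and rho = 0.82 (p = 0.00029, adjusted p = 0.006). Tuba1a and Tubb2a had r = 0.68 (p = 0.0002, adjusted p = 0.0045) and rho = 0.72 (p = 0.00014, adjusted p = 0.006). Leaving out the 2 mice farthest from the median left r at 0.80, 0.72 and 0.72 in these 3 pairs.

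Tubb4b also correlated with Tuba8 (r = 0.76, p = 0.00159, adjusted p = 0.0179, and rho = 0.75, p = 0.00265, adjusted p = 0.0298). Tuba1c correlated with Tubb4b (r = 0.71, p = 0.00273, adjusted p = 0.0205, but rho = 0.60, p = 0.0134, adjusted p = 0.1) and with Tuba8 (r = 0.62, p = 0.00241, adjusted p = 0.0205, but rho = 0.60, p = 0.017, adjusted p = 0.109). For these pairs r without the 2 farthest mice was 0.64, 0.57 and 0.64. Without LP mice 13 and 20 there were 3 pairs under 0.05, Tuba4a with Tuba8 (r = 0.75), Tuba4a with Tubb4b (r = 0.79) and Tuba1a with Tubb2a (r = 0.71), each at an adjusted p of 0.0163. Tubb5 followed Tuba1b (r = 0.66, p = 0.00945, rho = 0.64, p = 0.0109) without passing the adjustment (adjusted p = 0.0607 and 0.0978), and r was 0.48 without the 2 farthest mice. The largest negative value was that of Tubb6 with Tuba1a (r = -0.71, p = 0.0528, adjusted p = 0.237, and rho = -0.34, p = 0.171, adjusted p = 0.453). It rested on single mice, since r was -0.02 without the 2 farthest mice and -0.20 without LP mice 13 and 20.

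**Figure D4:**
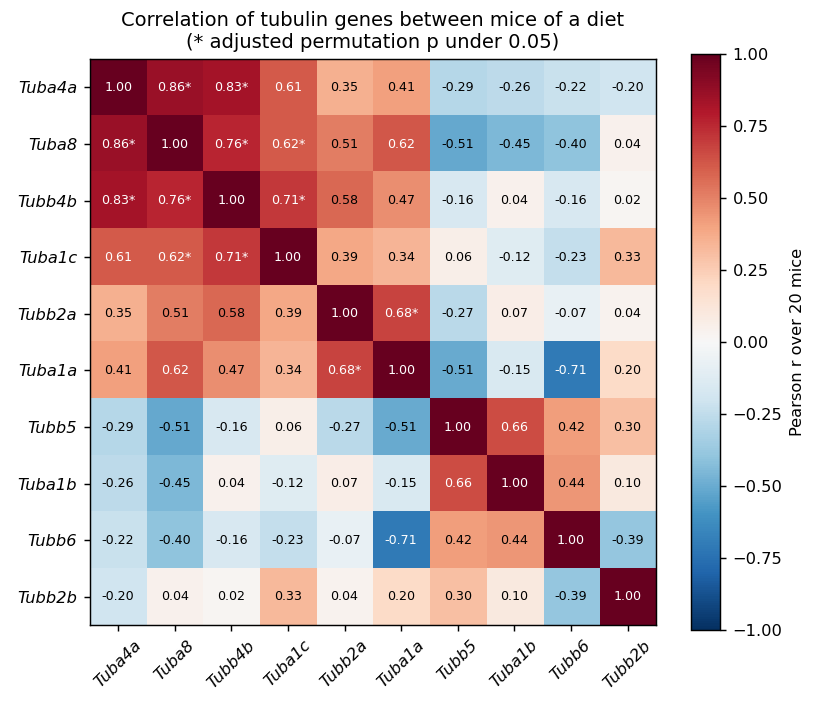
Pearson's r (color and number) between the log2 CPM of each pair of tubulin genes over 20 mice after subtracting diet means, with an asterisk where the adjusted permutation p is under 0.05. Tuba4a, Tuba8 and Tubb4b form 1 block of high values (0.76 to 0.86) and Tubb2a with Tuba1a another (0.68), and Tubb5 with Tuba1b reaches 0.66.

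The genes outside the family whose residuals were most like a member's, ranked by r over the same 20 mice and given without a test, differed from member to member. For Tuba4a the leading 3 were Ndufa11, a subunit of respiratory complex I, Inpp5a, an inositol phosphate phosphatase, and Cox10, an assembly factor of cytochrome c oxidase (r = 0.91, 0.91 and 0.90). Tuba8 was most like Ttc19, Etl4 and Optn (0.93, 0.92 and 0.91), and Tubb4b most like Armc1, Tmem25 and Gfer (0.89, 0.88 and 0.85). Tubb2a was most like Nedd9, a scaffold of focal adhesions, Tmem171 and Tnfaip2 (0.89, 0.85 and 0.85), values that stayed between 0.84 and 0.87 without LP mice 13 and 20. Tuba1a was most like Spsb3, Dctn1, the largest dynactin subunit, and Uqcc2 (0.94, 0.91 and 0.91), but without those mice the values were 0.81, 0.61 and 0.62.

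Among the other members, Tubb5 was most like Ywhab, Mcm2, a helicase subunit of DNA replication, and Anxa2 (0.88, 0.88 and 0.85). Tuba1b was most like Sft2d2, Sfxn3 and Lima1 (0.90, 0.86 and 0.85), and Tuba1c most like Gdf15, a stress-induced hormone, Psmb10 and Srrm4os (0.85, 0.84 and 0.84). Tubb6 was most like Sephs2, Itpa and Tbc1d20 (0.95, 0.93 and 0.92). Tubb2b was most like Cip2a, Ptprc, the leukocyte common antigen, and Mki67, a marker of cycling cells (0.92, 0.90 and 0.89). Those values were 0.74, 0.68 and 0.61 without LP mice 13 and 20.

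Single mice stood far out in several members, among them Tubb2b and Tubb6. LP mouse 20 had 295 normalized counts of Tubb2b while the other LP mice had 40.9 to 69.2, and the same mouse had the highest proliferating cell and lymphocyte markers of the series. The 4 HF mice with more than 100 normalized counts of Tubb2b had 16.9 to 34.95 CPM of proliferating cell markers (8 genes, all detected), and the fifth, mouse 3, had 55.9 normalized counts and 11.9 CPM. In NP these markers were 7.90 to 13.6 CPM. In HF + LP the levels did not follow the markers. Mouse 5, with the lowest marker sum of its group (7.14 CPM), had 85.6 normalized counts of Tubb2b. Mouse 2, with the highest of its group (15.9 CPM), had 56.6. Tubb6 was 750.4 in LP mouse 13, the library with the most atrial marker RNA. The library also had the highest summed adipocyte (216 CPM), macrophage (518 CPM) and Schwann cell and neuron (57.6 CPM) markers. Its fibroblast sum (2520.2 CPM) was the highest on unscaled totals only. Tubb6 was 440.4 in NP mouse 4, whose atrial markers (1260.5 CPM) were not the highest of its group. The macrophage (319 CPM), Schwann cell and neuron (23.5 CPM) and pericyte and smooth muscle (668 CPM) markers of NP mouse 4 were. HF mouse 1 had 12460.2 CPM of atrial markers with an ordinary Tubb6 level of 198. The part of these cell types in the tubulin levels was not tested.

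**Figure D5:**
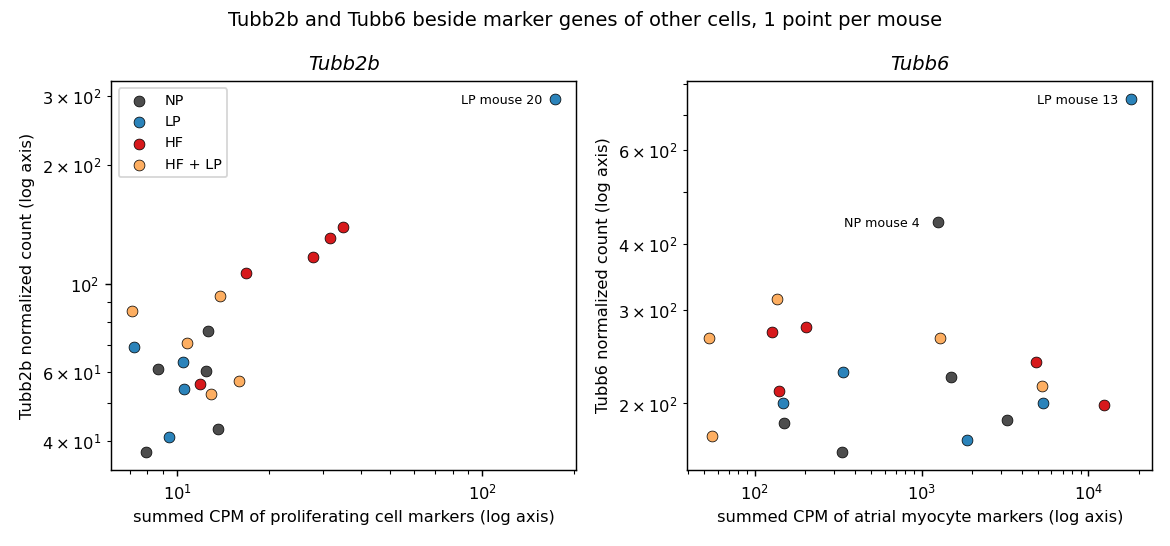
Normalized count of Tubb2b against the summed CPM of proliferating cell markers (left) and of Tubb6 against that of atrial myocyte markers (right), both axes logarithmic, 1 point per mouse colored by diet. LP mouse 20 holds the highest values of both measures on the left, and LP mouse 13 on the right, where NP mouse 4 stands out for Tubb6 alone.

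Other genes of the tubulin pathway were taken from lists, and 1 of them met the thresholds in edgeR. Of 10 further tubulin isotypes and superfamily members 6 were in the table and 4 were tested (Tubb3, Tubg1, Tubg2 and Tubd1). In every comparison 0 were called, against at most 1.0% of all genes. Under an unadjusted 0.05 there were 0 between HF and NP, against 13.1% of all genes, and 1 lower for the main effect of fat, against 12.6%. Tubb3, the neuronal β isotype, had a mean normalized count of 15.3 and Tubg2 of 36.9. Their log2 fold changes between HF and NP were 0.07 (SE 0.32) and -0.20 (SE 0.28).

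Newly made tubulin is folded by prefoldin, the chaperonin CCT and the tubulin cofactors. Of 21 such genes, all tested, 0 were called, and 2 were higher and 0 lower at an unadjusted p below 0.05 between HF and NP, against 5.17% and 7.91% of all genes. For the main effect of fat 6 were higher and 1 lower, against 8.28% and 12.6% of all genes, with a median log2 fold change of 0.10 against -0.02 over all genes. Tbca, the cofactor that binds β-tubulin, averaged 1205 ± 129 normalized counts in NP and 1439.7 ± 60.5 in HF, and 1161 ± 85.9 in LP against 1441 ± 104 in HF + LP (fat main effect 0.28, SE 0.06, adjusted p = 0.0114). Arl2, a small GTPase that works with the cofactors, had 0.17 (SE 0.08, adjusted p = 0.225). Of 4 autoregulation genes 0 were called, and Cnot1, the scaffold of the deadenylase complex, had -0.38 (SE 0.15, adjusted p = 0.235) between HF and NP, while Cnot11 had -0.12 (SE 0.11).

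Of 22 genes for tyrosination, acetylation and glutamylation enzymes 18 were tested and 0 called, with 0 higher and 2 lower at an unadjusted p below 0.05 between HF and NP, against 5.17% and 7.91% of all genes. For the main effect of fat 1 was higher and 4 were lower, against 8.28% and 12.6% of all genes. Agbl3, a deglutamylase, averaged 25.7 in NP and 18.3 in HF, and 36.4 in LP against 28.5 in HF + LP (fat main effect -0.42, SE 0.15, adjusted p = 0.108). Ttll7, a glutamylase of β-tubulin, had 0.42 (SE 0.13, adjusted p = 0.0566). Of the detyrosination cycle, the vasohibins Vash1 and Vash2 were not analysed here, and the values of Ttl and Svbp overlapped between HF and NP. Ttl, the ligase, averaged 552 ± 65.4 in NP and 597 ± 53.9 in HF, and Svbp, the partner of the vasohibins, 156 ± 24.4 and 192 ± 57.4. Both were named for that role and not by the rule for named genes.

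Of 31 microtubule-associated, plus-end and destabilizing proteins 26 were tested and 0 called, with 1 higher and 4 lower between HF and NP at an unadjusted p below 0.05, against 5.17% and 7.91% of all genes. For the main effect of fat 3 were higher and 3 lower, against 8.28% and 12.6%. Mapre1, the plus-end protein EB1, had a fat main effect of 0.28 (SE 0.08, adjusted p = 0.0554), and Map7d1, a partner of kinesin-1, one of -0.30 (SE 0.10, adjusted p = 0.0824). Of 11 γ-tubulin ring complex and minus-end genes 0 were called, and 0 had an unadjusted p below 0.05 between HF and NP, against 13.1% of all genes. For the main effect of fat 1 was higher and 2 were lower at that p, against 8.28% and 12.6%. Tubgcp3 and Tubgcp6 had -0.25 (SE 0.11, adjusted p = 0.175) and -0.28 (SE 0.13, adjusted p = 0.213). Of 22 kinesin and dynein genes 1 was called, in the main effect of fat, against 1.0% of all genes. At an unadjusted p below 0.05, 2 were higher and 3 lower between HF and NP, against 5.17% and 7.91% of all genes. For the main effect of fat 3 were higher and 3 lower, against 8.28% and 12.6% of all genes. The called gene was Dynll1, a dynein light chain, which rose from 294 ± 22.1 in NP and 293 ± 51.8 in LP to 430.1 ± 42.8 in HF and 377 ± 65.9 in HF + LP (0.46, SE 0.09, adjusted p = 0.00659).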

How the data were processed

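Left ventricular RNA of 20 mice was sequenced with QuantSeq 3′ libraries as 75-base reads on a NextSeq instrument and aligned with BlueBee software by the authors. The deposited table holds raw counts of reads per gene, one column per library, and the submitters' processing notes name GRCm38 and DESeq2 1.22.2. The annotation and the counting rule are not given in the sources used here. Ensembl identifiers were paired with symbols of GENCODE M21, and sequences were read from its transcripts. The coding ends of some members are not reported here.

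The counts of all 4 diets were fitted together in edgeR 4.0.16 (R 4.3.3, limma 3.58.1) with TMM factors, filterByExpr by diet and the quasi-likelihood test, and p-values were adjusted by Benjamini-Hochberg over 13991 genes. Calls used the study's thresholds, a base mean over 50 with an adjusted p under 0.01. Simulated counts were used to test the procedure. Log2 CPM used scaled totals and a prior count of 2, and marker sums used unscaled totals. DESeq2 1.42.0, other scaling, no filter, other thresholds, library-name number, animal number and each library left out were alternatives. Depth was 12559607 to 23331907 counts a library, and the intervals between mice include counting error.

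Members and lists were chosen with earlier results of these data known. All 10 members were named. From each other list the called genes, or else the 2 with the smallest p in the test over the 4 diets, were named, and for each member the 3 genes with the highest r of residuals. Animal numbers repeat between diets but mark different animals, and same-numbered mice did not deviate together (correlations of residuals -0.553 to 0.476 between HF and HF + LP), so they were not paired. Correlations and figures used Python 3.11.15 with numpy 2.4.6, pandas 2.3.3 and scipy 1.17.1.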

Additional observations from a re-analysis of the deposited data

Results flagged for a closer look

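Within each of the 4 diets, the highest and the lowest of the 5 mice were compared with the rest for each of the 10 members, and in 5 of 40 groups 1 mouse lay farther from its nearest neighbor than Dixon's critical value of 0.71 of the range allows. Chance alone gives such a flag in about 1 group in 20.

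LP mouse 20 had 295 normalized counts of Tubb2b, and the other 4 LP mice had 40.9 to 69.2. LP mouse 13 had 750.4 normalized counts of Tubb6 against 171 to 229 in the other LP mice, and 528 of Tuba1a against 1030.4 to 1191. These are the libraries with the most proliferating cell and atrial marker RNA, respectively. NP mouse 4 had 440.4 normalized counts of Tubb6 against 162 to 224 in the other NP mice. HF + LP mouse 5 had 2230.4 normalized counts of Tuba8 against 1635 to 1779.9 in the others of its diet.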

How the results depend on the processing

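Of 70 differences (10 genes in 7 comparisons) 42 kept their direction in all 27 alternatives, among them Tuba1a, Tubb2a and Tuba4a in HF against NP and in the main effect of fat, and 28 did not. With DESeq2 the called members were 2 in HF against NP, 2 for fat and 2 for any diet, and over all genes 158 and 389 were called in HF against NP and for fat, 318 for any diet, 81 in HF + LP against LP, 16 in HF + LP against HF, 3 in LP against NP and 1 for protein. With the adjusted p relaxed to 0.05 and the base mean minimum kept, 1 member was called in HF against NP and 2 for fat. Of all genes 157, 502, 252 and 45 were then called in HF against NP, for fat, any diet and HF + LP against LP. With the library-name number as a covariate, 38 genes were called for any diet and 5 in HF + LP against LP, and Tubb6 had 0.0200 for fat.

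With LP mice 13 and 20 left out, a setting chosen after the data were seen, 1, 2 and 1 members were called in HF against NP, for fat and for any diet, with 76 genes in HF against NP and 4 in HF + LP against LP. Correlated pairs went from 6 to 3, and the fat effect was 0.12 for Tubb6 and 0.0795 for Tubb5. With the replicate block (animal number), all genes called were 2 in HF against NP, 13 for fat, 2 for any diet and 0 in HF + LP against LP. The block called 0 members, and it turned the sign of Tubb6 in HF against NP (-0.00467) and for fat (0.13), and of Tubb5 in LP against NP (-0.22), for fat (0.16) and in the interaction (0.0665). Since the numbers mark different animals, this block is not a pairing. The cause of these moves was not tested.

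Leaving out each library in turn gave 0 to 1 called members in HF against NP, for fat and for any diet. All genes called were 20 to 69 in HF against NP, 79 to 198 for fat, 33 to 101 for any diet, 1 to 16 in HF + LP against LP and 0 to 1 in HF + LP against HF. Tubb6 ranged from -0.10 to 0.35 in HF against NP, -0.0634 to 0.14 in HF + LP against HF and -0.25 to 0.16 for fat, and Tuba1c from -0.24 to 0.0888 in HF + LP against HF. Depth limits Tubb2b, whose lowest count was 34.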
